A study of Solanum lycopersicum with 6 samples.

Results

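The heat shock transcription factors described here are 10 tomato genes of the family, selected by their locus identifiers, with earlier results of these data known: HSFA1a (Solyc08g005170), HSFA1b (Solyc03g097120), HSFA1e (Solyc06g072750), HSFA2 (Solyc08g062960), HSFA3 (Solyc09g009100), a pair of HSFA4 genes (Solyc03g006000 and Solyc07g055710), HSFB1 (Solyc02g090820), HSFB2a (Solyc03g026020) and HSFB2b (Solyc08g080540). All 10 were present among the 34688 gene models of the count table, and 8 passed the count filter of the main test. They were read in bulk RNA-seq libraries of wild type roots of Solanum lycopersicum cultivar M82, 3 from untreated root tips (whole roots) and 3 from protoplasts, the cells freed from their walls by an enzyme mix of cellulases, macerozyme and pectolyase. Both groups came from primary roots of seedlings 7 days after sowing, with 50 to 100 root ends of about 3 cm pooled in each sample. For the protoplasts, digestion took 2 h at 25 °C with shaking, and the released cells were passed through 40 μm strainers, spun and washed. The labels name no mock incubation of the whole roots, so the enzymes, the time in solution and the isolation of cells cannot be told apart as sources of a difference.

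Heat shock factors bind heat shock elements, short inverted repeats in the promoters of genes for chaperones and other protective proteins. In tomato, class A factors carry activation motifs, with HSFA1a known as the master regulator that starts the heat response and HSFA2 as the factor that accumulates during it and forms strongly active complexes with HSFA1 proteins. Class B factors lack those motifs. HSFB1 is known in tomato as a co-activator that works with HSFA1a, and its Arabidopsis relatives of the B1 and B2 groups are known as repressors that damp the response. The activity of these proteins depends strongly on chaperone binding, location and partners, none of which is seen in transcript counts.

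The libraries held 5198513 to 5790082 estimated counts, and the libraries of both groups overlapped in total. The QuantSeq kit reads each transcript near its 3′ end, so levels are given as normalized CPM, counts scaled to a common library size with TMM factors, and were not divided by transcript length. The level that a count of 0 allows, taken as 3 counts, ranged from 0.480 to 0.626 CPM over the libraries and covers counting error only. The labelled tissue was checked on 6 exodermis genes named in the study, among them SlASFT, an enzyme of suberin synthesis. All 6 were lower in every protoplasted library than in every whole-root library, with a summed level of 886 to 1383 CPM in whole roots and 4.38 to 24.3 CPM in protoplasts, and SlGPAT5 had no count in protoplasted replicates 1 and 2. Protoplasts thus carried few transcripts of these genes, and the part of this difference in the values below was not tested. In bulk samples, fewer cells of a type and less RNA per cell cannot be told apart. Kallisto divides reads that match several transcripts, but the counts of all 10 heat shock factors were whole numbers in all 6 libraries (within 1e-06), so no read of theirs was visibly split with another gene model.

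**Figure D1:**
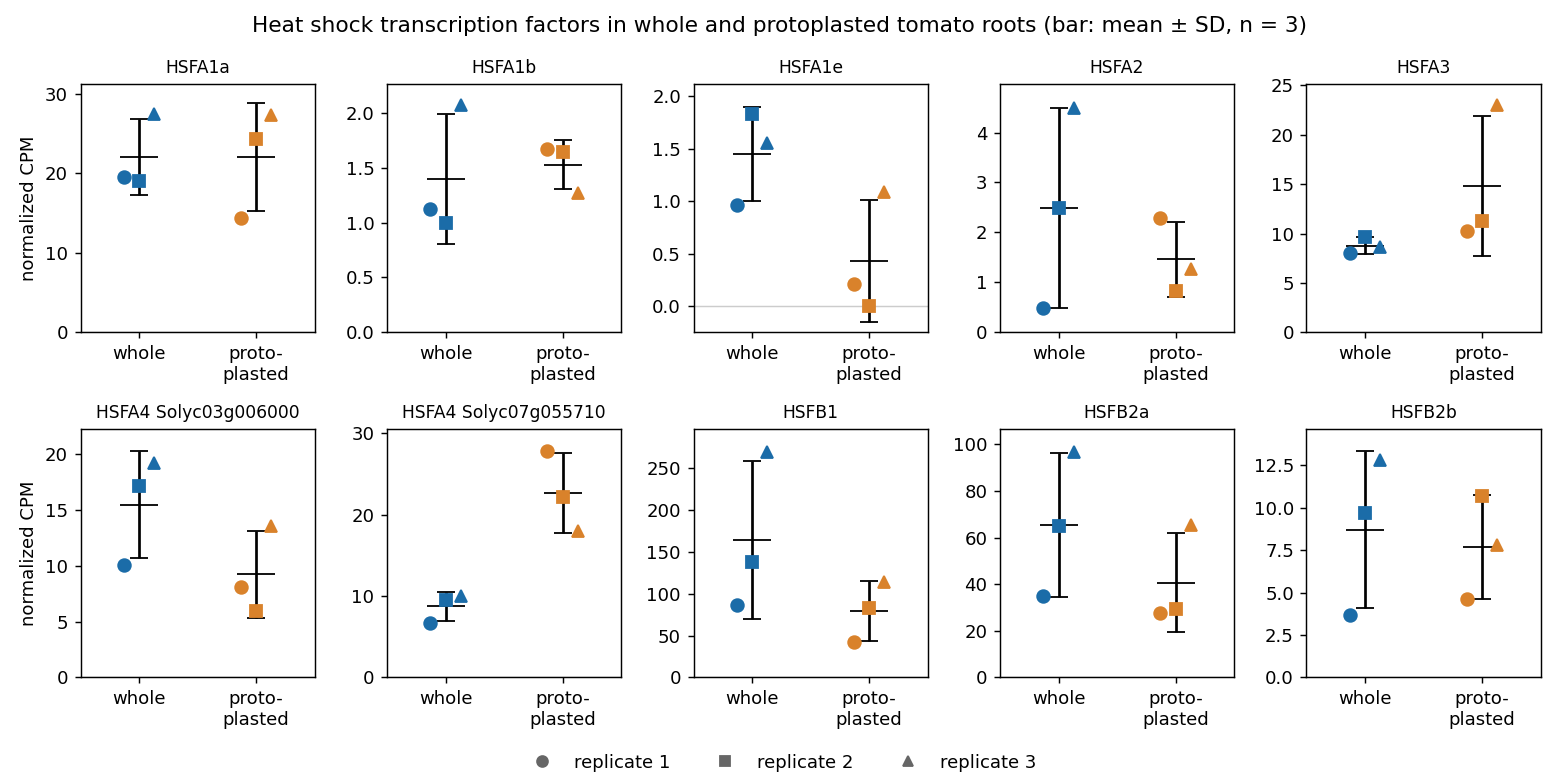
Normalized CPM of each heat shock factor (y axis, own scale in each panel) in whole and protoplasted roots, with circles, squares and triangles for replicates 1, 2 and 3 and bars for mean ± SD (n = 3). Groups do not overlap for HSFA4 (Solyc07g055710) and HSFA3, and the triangle is the highest whole-root point in 8 of the 10 panels.

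Among the 8 factors tested, 1 differed between the groups past an adjusted p of 0.05, HSFA4 (Solyc07g055710), which was higher in protoplasts. None was lower past that threshold, although HSFB1 and HSFB2a, the most abundant of the 10, had lower means in protoplasts. HSFA1a, the master regulator, had nearly the same mean in both groups, and HSFA2 had 3 to 26 counts per library. The 1 higher call makes 12.5% of the factors tested, beside 17.0% of all 15966 genes tested, and the 0 lower calls stand beside 18.7% of all genes (quasi-likelihood test of edgeR, with p-values adjusted over all genes by the Benjamini-Hochberg method). DESeq2 and limma-voom called 1 higher and 0 lower factors too. Before adjustment, HSFB1 had a p of 0.0522 in edgeR. Of the 15966 genes, DESeq2 called 2750 higher and 3248 lower, and limma-voom 2806 higher and 2859 lower. A fit with the replicate number as a block treats same-numbered libraries as pairs, which the labels do not state. In that fit 1 factor was higher and 2 were lower, HSFB1 and HSFB2a, beside 25.0% of all genes higher and 24.3% lower.

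No factor passed the log2 fold change of 2 that the methods use for protoplast-induced genes. The median log2 fold change was -0.43 over the 8 factors tested and -0.43 over all 10 in a fit that kept every gene with any count, against 0.02 over all genes tested. The direction was negative for 5 of the 8 factors and positive for 3, while 48.9% of all genes tested had a negative value. In 2 of the 10 factors every protoplasted library lay above every whole-root library, beside 25.1% of all genes tested, and in none did every protoplasted library lie below, beside 25.6%. The background of separated genes covers tested genes only, and both factors with separated groups, HSFA4 (Solyc07g055710) and HSFA3, were among the 8 tested. With only 8 factors tested these shares are coarse, and they are not read as a result about the family. In the blocked fit 2 of 8 lower factors stood close to the background.

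**Figure D2:**
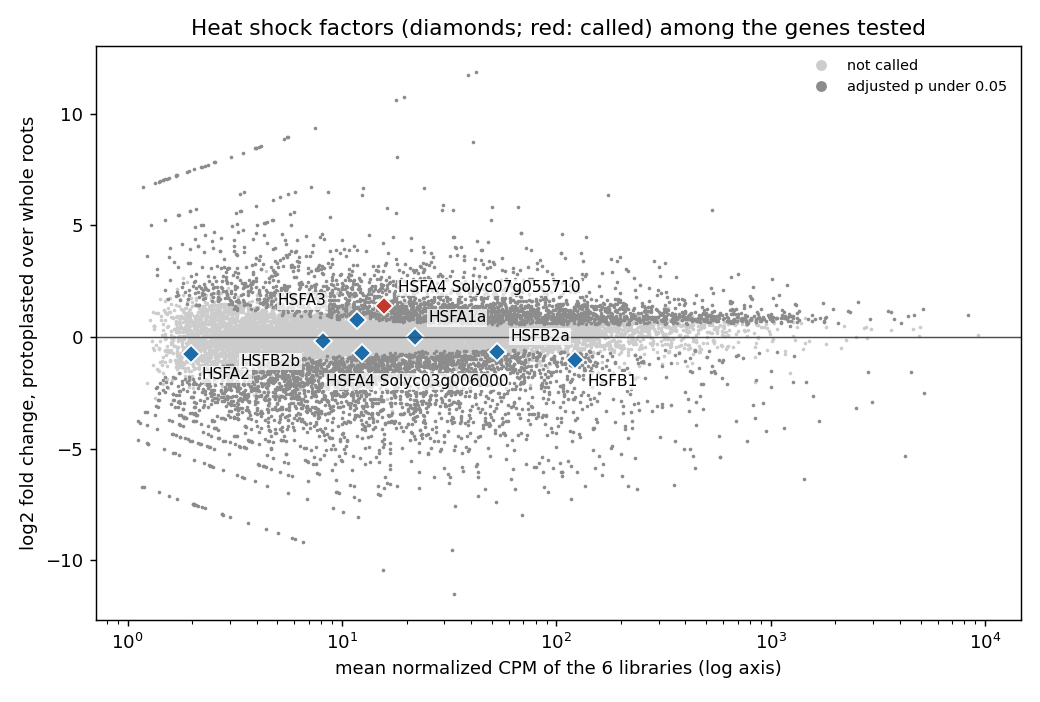
Each point is one of the 15966 genes tested, with its mean normalized CPM over 6 libraries (x, log axis) and its log2 fold change in protoplasted over whole roots (y). Diamonds are the 8 heat shock factors tested, of which only HSFA4 (Solyc07g055710, red) was called at an adjusted p under 0.05, and all lie between -1.04 and 1.37 on the y axis.

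HSFA4 (Solyc07g055710) belongs to the A4 group, which in Arabidopsis is known for its part in responses to reactive oxygen. Its level was 6.71, 9.49 and 10.0 CPM in whole-root replicates 1, 2 and 3, and 27.8, 22.2 and 17.9 CPM in the protoplasted replicates. The lowest protoplasted library was thus well above the highest whole-root library. Protoplasts held 4.1, 2.3 and 1.8 times the whole-root level in replicates 1, 2 and 3, so the size of the difference varied. The means were 8.74 ± 1.78 CPM in whole roots and 22.6 ± 4.93 CPM in protoplasts (SD, n = 3), a 2.59-fold higher mean. The log2 fold change was 1.37 (standard error 0.29, adjusted p = 0.00751 in edgeR). Its 95% interval of 0.71 to 2.03 reached just past the threshold of 2. The call held in all 6 fits that each left out 1 library, in which the log2 fold change lay between 1.18 and 1.48, and in all 18 alternatives computed.

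The second A4 gene, HSFA4 (Solyc03g006000), was at 10.1, 17.2 and 19.2 CPM in whole roots and at 8.14, 5.96 and 13.6 CPM in protoplasts. Only protoplasted replicate 3 reached into the whole-root range. With an adjusted p of 0.17 in edgeR, its log2 fold change of -0.74 ± 0.39 (standard error) did not pass the test, and with the block the adjusted p was 0.0626. Without protoplasted replicate 3 the unblocked value was -1.17 (adjusted p = 0.0556 in edgeR), and with the block it passed when replicate number 1 was left out of both groups (adjusted p = 0.0249 in edgeR). The pair of A4 genes can be set against each other inside each library, where normalization has no part. Solyc07g055710 had 0.667, 0.553 and 0.523 times the counts of Solyc03g006000 in whole-root replicates 1, 2 and 3, and 3.41, 3.72 and 1.32 times its counts in the protoplasted replicates. Solyc03g006000 was the more abundant of the pair in every whole-root library and the less abundant in every protoplasted library. The log2 ratios did not overlap between the groups (p = 0.1 in a two-sided exact permutation test, which cannot go lower with 3 libraries a group). This pair, 1 of 6 ratios computed, was chosen after its values were seen. The ratio of HSFB1 to HSFA1a was separated too, with p = 0.1 in the same permutation test. It was 4.42, 7.23 and 9.77 in whole roots and 2.94, 3.41 and 4.15 in protoplasts. The remaining ratios overlapped between the groups.

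HSFB1 was the most abundant of the 10 factors in every library. It stood at 86.1, 137 and 269 CPM in whole-root replicates 1, 2 and 3, and at 42.4, 82.7 and 113 CPM in the protoplasted replicates. Whole-root replicate 3 was far above the rest, and protoplasted replicate 3 lay above whole-root replicate 1, so that the groups overlapped. The means of 164 ± 94.1 and 79.5 ± 35.6 CPM (SD, n = 3) differed 2.06-fold, and the log2 fold change of -1.04 (standard error 0.46, 95% interval -2.10 to 0.01) had an adjusted p of 0.112 in edgeR. Leaving out whole-root replicate 1 brought the call, at a log2 fold change of -1.36 and an adjusted p of 0.0386, and leaving out whole-root replicate 3 moved the value to -0.49. The values without 1 library lay between -1.42 and -0.49.

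Within a replicate number the values of HSFB1 were much closer. Protoplasts held 0.492, 0.603 and 0.422 times the whole-root level in replicates 1, 2 and 3. Replicate 3 was the highest and replicate 1 the lowest library in both groups. With the replicate number as a block, the log2 fold change was -1.0 (standard error 0.16, 95% interval -1.37 to -0.64, adjusted p = 0.001 in edgeR). The blocked call held when any 1 replicate number was left out of both groups, with values from -1.14 to -0.94, a check added after the data were seen.

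HSFB2a, by mean level the second most abundant factor in both groups, stood at 34.8, 65.0 and 96.8 CPM in whole roots and at 27.5, 29.2 and 65.4 CPM in protoplasts. Protoplasted replicate 3 stood level with whole-root replicate 2, while the other protoplasted libraries lay under all whole-root libraries. In protoplasted replicate 1 its 132 counts were level with the 133 of HSFA4 (Solyc07g055710). At -0.68 ± 0.44 (standard error), its log2 fold change did not pass the test (adjusted p = 0.256 in edgeR). It was -0.29 without whole-root replicate 3 and -1.24 without protoplasted replicate 3 (adjusted p = 0.653 and 0.0506 in edgeR). Protoplasts held 0.791, 0.450 and 0.675 times the whole-root level in replicates 1, 2 and 3, and with the replicate block the log2 fold change of -0.69 (standard error 0.19) had an adjusted p of 0.017. Without replicate number 2 in both groups, the blocked value was -0.46 with an adjusted p of 0.118 in edgeR, so the call was not kept there. It held without number 1 and without number 3 (adjusted p = 0.00465 and 0.032 in edgeR). These fits have fewer libraries, so a lost call can also reflect less power.

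HSFB2b was far less abundant than the other class B factors, at 3.68, 9.66 and 12.8 CPM in whole roots and 4.59, 10.7 and 7.79 CPM in protoplasts. The groups overlapped almost fully, and the log2 fold change was -0.18 (standard error 0.49, 95% interval -1.30 to 0.95, adjusted p = 0.81 in edgeR). The width of this interval leaves room for sizeable changes either way. Its same-number ratios were 1.25, 1.11 and 0.609.

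**Figure D3:**
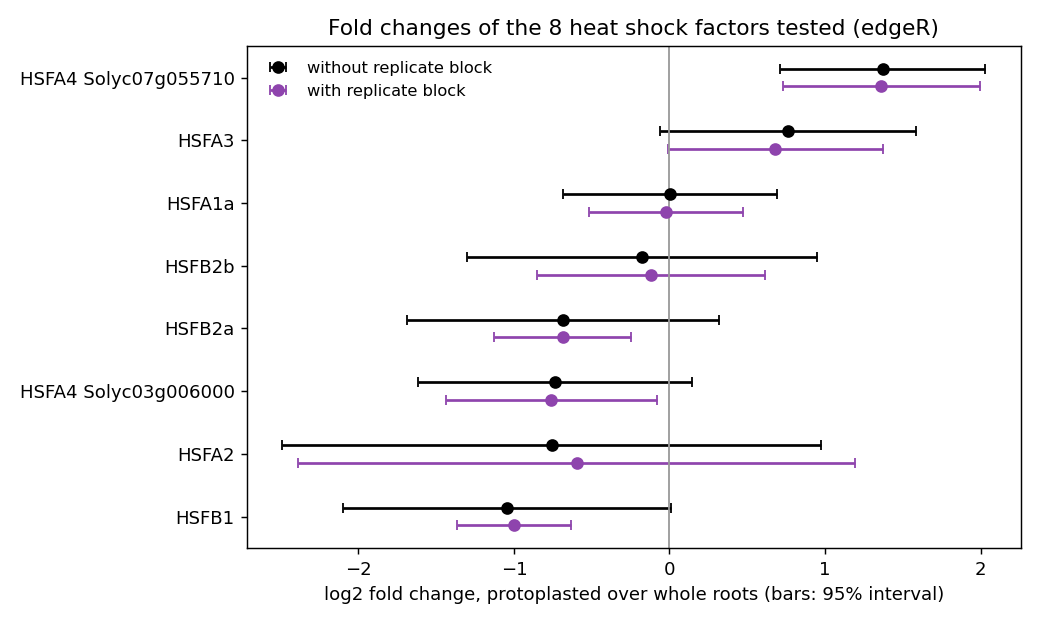
Log2 fold change of protoplasted over whole roots (x) for each of the 8 heat shock factors tested, with 95% intervals from edgeR, fitted without (black) and with (purple) a block for the replicate number. HSFB1 keeps its value near -1 in both fits while its standard error goes from 0.46 to 0.16, and the interval of HSFA4 (Solyc07g055710) stays above 0 in both.

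**Figure D4:**
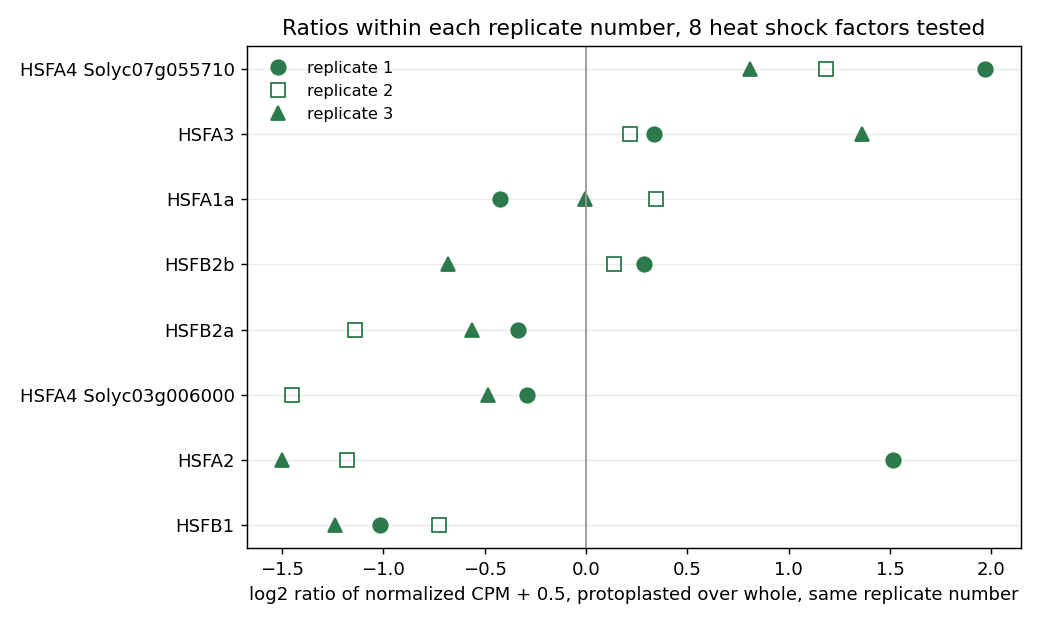
Log2 ratio of normalized CPM + 0.5 in protoplasted over whole roots with the same replicate number (x) for the 8 factors tested. All 3 ratios lie above 0 for HSFA4 (Solyc07g055710) and HSFA3, all 3 lie below 0 for HSFB1, HSFB2a and HSFA4 (Solyc03g006000), and the ratios of HSFA2 lie at -1.50, -1.18 and 1.51.

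HSFA1a, from which the heat response of tomato starts, was at 19.5, 19.0 and 27.5 CPM in whole roots and at 14.4, 24.3 and 27.3 CPM in protoplasts. Its means of 22.0 ± 4.76 and 22.0 ± 6.76 CPM (SD, n = 3) gave a log2 fold change of 0.003 (standard error 0.30, 95% interval -0.68 to 0.69, adjusted p = 0.995 in edgeR), a value whose sign turned under RLE factors (-0.02) and under library size alone (-0.15). This does not show that HSFA1a was equal in both groups, as the interval has room for changes either way. HSFA1a was by far the most abundant of the 3 A1 genes in every library.

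HSFA1b and HSFA1e, close relatives of HSFA1a, did not pass the count filter of the main test. A filter of at least 1 CPM in at least 3 libraries kept both, and neither was called there (adjusted p = 0.874 and 0.19 in edgeR). HSFA1b had 7, 6 and 12 counts in whole-root replicates 1, 2 and 3 and 8, 8 and 7 counts in the protoplasted replicates, and no difference was detectable at this depth (log2 fold change 0.12, standard error 0.66, adjusted p = 0.914 in the edgeR fit that kept every gene with any count). HSFA1e had 6, 11 and 9 counts in whole roots against 1, 0 and 6 in protoplasts, a total of 26 against 7. Its libraries overlapped at 6 counts before normalization and at 0.959 and 1.09 CPM after it. In the same fit, its log2 fold change was -1.65 (standard error 0.97, adjusted p = 0.247 in edgeR).

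HSFA2, the factor known to accumulate in heated tomato tissue, was near the lower end of what could be tested, at percentile 2.68 of the mean levels of all genes tested. Its counts were 3, 15 and 26 in whole roots and 11, 4 and 7 in protoplasts. Whole-root libraries spanned a wider range than protoplasted ones, from 0.479 to 4.49 CPM against 0.823 to 2.30 CPM, and held the protoplasted values within them. The log2 fold change of -0.76 had a standard error of 0.76 and an adjusted p of 0.469 in edgeR, with an interval from -2.49 to 0.98, and leaving out 1 library at a time moved it between -1.25 and -0.03. With the block the interval reached from -2.39 to 1.20, and the same-number ratios went in both directions, with protoplasts at 4.79 times the whole-root level in replicate 1 and at 0.329 and 0.282 times in replicates 2 and 3. No direction can be given for HSFA2.

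HSFA3, which in Arabidopsis is known to be switched on by drought and heat through the DREB2A pathway, was at 7.99, 9.66 and 8.64 CPM in whole roots and at 10.2, 11.3 and 23.0 CPM in protoplasts. All protoplasted libraries lay above all whole-root libraries, but replicates 1 and 2 only slightly so, and the higher mean came mostly from protoplasted replicate 3. The log2 fold change of 0.76 (standard error 0.36) had an adjusted p of 0.133 in edgeR, or 0.0944 with the block. Without protoplasted replicate 3 the value was 0.26. Whole-root levels of HSFA3 were the most even of the 10 genes, with a coefficient of variation of 9.60% against 20.3% to 80.6% for the others.

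The make-up of the family was compared within libraries as the share of each factor in the summed counts of the 10 genes, which carried 1073, 1636 and 2613 counts in whole-root replicates 1, 2 and 3 and 667, 918 and 1502 in the protoplasted replicates. HSFB1 held 50.2%, 50.4% and 59.5% of them in whole roots and 30.4%, 43.8% and 41.7% in protoplasts. The class B factors together made 72.7% to 83.7% in whole roots and 53.5% to 68.6% in protoplasts. The ratio of class B to class A counts per library was 2.66, 3.49 and 5.15 in whole roots and 1.15, 1.85 and 2.18 in protoplasts. Class B thus remained the larger class in every library, and its excess did not overlap between the groups. The summed level of each class did overlap. Class B lay at 125 to 378 CPM in whole roots and 74.5 to 187 CPM in protoplasts. Class A lay at 46.8 to 73.5 CPM in whole roots and 64.7 to 85.5 CPM in protoplasts. HSFA4 (Solyc07g055710) made 2.22% to 3.91% of the family in whole roots and 6.59% to 19.9% in protoplasts. The share of HSFB2a overlapped between the groups, at 20.3% to 23.8% and 15.5% to 24.0%. These shares are a description, since a share must fall when another rises.

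**Figure D5:**
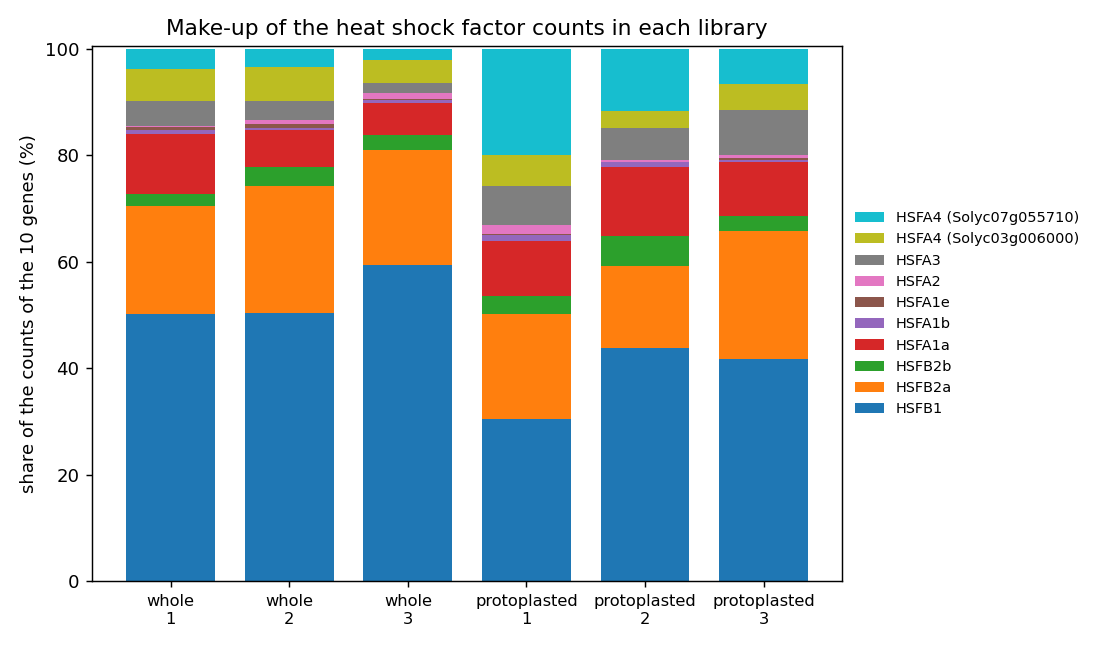
Share of each heat shock factor in the summed counts of the 10 genes (y, percent) in each of the 6 libraries. The class B genes (lowest 3 segments) take 72.7% to 83.7% in whole roots and 53.5% to 68.6% in protoplasts, and the top segment, HSFA4 (Solyc07g055710), is largest in protoplasted replicate 1, at 19.9%.

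By mean level, the order in whole roots was HSFB1, HSFB2a, HSFA1a, HSFA4 (Solyc03g006000), HSFA3, HSFA4 (Solyc07g055710), HSFB2b, HSFA2, HSFA1e and HSFA1b. In protoplasts HSFA4 (Solyc07g055710) moved from place 6 to place 3, HSFA4 (Solyc03g006000) from place 4 to place 6, and HSFB1 and HSFB2a kept the first places. Places 5 to 7 in whole roots, HSFA3, HSFA4 (Solyc07g055710) and HSFB2b, had means of 8.76, 8.74 and 8.71 CPM that did not differ beyond their spread, so their order is not determined. The same held for HSFA1e and HSFA1b, with means of 1.45 and 1.40 CPM, and for HSFA1a and HSFA4 (Solyc07g055710) in protoplasts, with means of 22.0 and 22.6 CPM.

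Several factors varied together across the 6 libraries. The pairs given were picked for high or low values among all pairs of the 10 factors, without a background of other gene pairs. The highest r, 0.95, was that of HSFA4 (Solyc03g006000) with HSFA1e, which had few counts. The level of HSFB2a correlated with that of HSFA4 (Solyc03g006000) at a Pearson r of 0.94 and with that of HSFB1 at 0.91, on log2 CPM over 6 libraries that share depth and group. After the group means were removed, these values were 0.93 and 0.89. HSFA4 (Solyc07g055710) went the other way, with r = -0.58 to HSFB1 and -0.58 to the other A4 gene, and values of -0.01 and 0.11 after the group means were removed. Replicate 3 was the highest whole-root library for 8 of the 10 factors and the highest protoplasted library for 6 of them. No share over all genes stands beside these counts, and they are not read as particular to the factors. Among all genes tested, the patterns most like that of HSFA4 (Solyc07g055710) over the 6 libraries were those of Solyc06g005980.5.1 (r = 0.998, log2 fold change 3.32) and Solyc08g083060.3.1 (r = 0.997, log2 fold change 1.97). Both were picked as the highest of all genes tested, of which 229 of 15966 reached an r over 0.95. These values rest on 6 libraries in 2 groups, and a link between the genes was not tested.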

How the data were processed

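The authors trimmed the reads with TrimGalore! 0.6.6, quantified read 1 against ITAG4.1 transcripts (Kallisto 0.46.2) and deposited estimated counts per gene model, without normalization. No molecular identifiers or strand option are stated. No column of other samples was present (0 columns). Samples were grouped by their labels, as 3 separate libraries per group. Nothing says that the libraries came from separate cultures. The p-values weigh the group difference against the spread between these libraries, and may not extend to new preparations.

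Counts were rounded and tested in R 4.3.3 with edgeR 4.0.16. Genes were kept by filterByExpr (minimum count 10, minimum total 15), scaled with TMM factors and compared by the quasi-likelihood test without a block, with Benjamini-Hochberg adjustment over 15966 genes. Standard errors are the log2 fold change divided by the root of the F statistic. Alternatives used DESeq2 1.42.0, limma-voom (limma 3.58.1), other scalings, filters and thresholds, a replicate block, and each library left out. The members and lists were chosen with earlier results of these data known. All 10 members are named. Gene names follow the loci of the rule. The RefSeq table (SLM_r2.1) matched 0 of the identifiers, held 3 of the 10 names as symbol or synonym, and annotated none of the other heat shock loci considered, which were not used here.

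Over the genes tested, deviations from the group means were compared between libraries of both groups. Same-numbered libraries gave r = 0.438, 0.116 and 0.547 for numbers 1, 2 and 3. Libraries of different numbers gave r from -0.48 to 0.03, and number 2 stood little above the highest of these. Deviations from a mean of 3 libraries cancel out within each gene. High values for same numbers therefore push down those for different numbers, which are not an independent yardstick. The numbers come from the sample labels, which name no shared batch.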

Additional observations from a re-analysis of the deposited data

How the results depend on the processing

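The call of HSFA4 (Solyc07g055710) and the direction of HSFA3, HSFB1, HSFB2a and HSFA4 (Solyc03g006000) held in all 18 alternatives computed for each. No called value changed its sign. The number of lower factors moved from 0 to 2 with the replicate block, beside 24.3% of all genes lower. It was also 2 with limma-voom and the block, beside 4002 of 15966 genes lower. With the block and every gene with any count it was 3 of 10, beside 4244 of 24719 genes lower. There HSFA4 (Solyc03g006000) also passed (adjusted p = 0.043 in edgeR). The last 2 settings, and the blocked fits without 1 replicate number, were chosen after seeing the data. The block changed no other call of a factor. With 1 library left out and no block, 0 to 1 of 8 factors were lower, beside 2059 to 3082 of 16468 to 16650 genes tested. With 1 replicate number left out of the blocked fit, 1 to 3 of 8 were lower, beside 3074 to 3791 of 16120 to 16246 genes. The highest number included HSFA4 (Solyc03g006000) without replicate number 1, in a fit with 3791 of 16187 genes lower. All of these fits called 1 factor higher. HSFB1 without a block was called only without whole replicate 1.
The number of genes higher was 1241 at an adjusted p under 0.01, 4217 with the block and every gene with any count and 4182 with limma-voom and the block, against 2711. The number of genes lower was 1665 at an adjusted p under 0.01, against 2981. The blocked edgeR fit called 3985 genes higher and 3876 lower. With 1 library left out and no block, 1522 to 2747 genes were higher and 2059 to 3082 lower, and with 1 replicate number left out of the blocked fit, 2733 to 3694 were higher and 3074 to 3791 lower. The lowest counts came without protoplasted replicate 2 (1522 and 2059), and 1726 genes were higher without whole replicate 2. HSFA1a, HSFA2 and HSFB2b, never called, changed sign in some of these fits. Library size alone moved the median of all genes from 0.02 to -0.14 and the share of higher calls from 47.6% to 35.4%, and moved the median of the 8 factors alike, from -0.43 to -0.57. The causes were not tested. At this depth HSFA1b and HSFA1e did not pass the main filter on low counts, but passed that of at least 1 CPM in at least 3 libraries.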
